A study of Homo sapiens with 6 samples.

Results

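The 7 mature miRNAs described here were those cut from the hairpins of miR-99a, miR-100 and miR-125b. They were hsa-miR-99a-5p, hsa-miR-99a-3p, hsa-miR-100-5p, hsa-miR-100-3p, hsa-miR-125b-5p, hsa-miR-125b-1-3p and hsa-miR-125b-2-3p, and the prefix for the human species is left out in most places below. They were chosen by name among 2588 miRNAs counted in each library. Small RNA was sequenced from A549, a human lung adenocarcinoma line, and from BEAS-2B, an immortalised human bronchial epithelial line, both with a wild-type genotype per the labels. Each line was left untreated (control) or given TGF-β1 at 1 ng/mL (the lower dose) or 5 ng/mL (the higher dose), a cytokine which pushes epithelial cells toward mesenchymal behaviour, and RNA was taken 48 h later. All cells were in RPMI1640 medium, which during treatment held 1% fetal bovine serum. There were 6 groups with 1 library each, so the values below carry no replicate error. No test was made. Every interval is a 95% interval of counting error only, and reads are not independent molecules because no molecular identifiers were described.

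miRNAs are made from hairpins in longer primary transcripts, and the 5′ and 3′ arms of 1 hairpin are named 5p and 3p. Target choice depends mainly on the seed, bases 2 to 8 of the mature miRNA. miR-99a, a let-7 miRNA and miR-125b lie together in vertebrate genomes, and the cluster exists in several copies. miR-99a and miR-100 belong to a family known for repressing the kinase MTOR. miR-125b is the vertebrate relative of lin-4, the first miRNA described.

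The mature sequences show how far the copies of the cluster can be told apart. They are RefSeq sequences on GRCh38.p14, written 5′ to 3′ with the seed in capitals, and all 7 names matched. First come the 5p arms.
miR-99a-5p: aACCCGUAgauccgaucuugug
miR-100-5p: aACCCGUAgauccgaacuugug
miR-125b-5p: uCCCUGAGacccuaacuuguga
The 3p arms differ more from each other, and those of miR-125b carry the number of their hairpin.
miR-99a-3p: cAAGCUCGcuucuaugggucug
miR-100-3p: cAAGCUUGuaucuauagguaug
miR-125b-1-3p: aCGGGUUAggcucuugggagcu
miR-125b-2-3p: uCACAAGUcaggcucuugggac

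miR-99a-5p and miR-100-5p shared the seed and differed by 1 substitution, A16U from miR-100-5p to miR-99a-5p, counted from the 5′ end. The 3p arms of these hairpins differed by 5 substitutions, of which U7C lay inside the seed. miR-125b-5p is made from a pair of hairpins with the same mature sequence, so its reads cannot be assigned to either locus. The 3p arms of those hairpins have unlike seeds and can be assigned. How the authors' counting handled a mismatch at a single base was not given in the sources used here, so a read of miR-99a-5p placed under miR-100-5p, or the reverse, cannot be recognised in these counts.

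The hairpins lie at 2 genomic copies of the cluster. In GENCODE release 29 on GRCh38, MIR100 was at chr11:122152229-122152308, MIRLET7A2 at chr11:122146522-122146593 and MIR125B1 at chr11:122099757-122099844, all on the minus strand inside the long noncoding gene MIR100HG. MIR99A was at chr21:16539089-16539169, MIRLET7C at chr21:16539828-16539911 and MIR125B2 at chr21:16590237-16590325, all on the plus strand inside the long noncoding gene MIR99AHG. From the first hairpin of the cluster to the miR-125b hairpin was 52472 bp on chromosome 11 and 51148 bp on chromosome 21. All 6 hairpins were intronic in every host transcript that spanned them, which were 8, 8 and 23 of 39 MIR100HG transcripts and 13, 13 and 14 of 21 MIR99AHG transcripts. miR-99a-5p and miR-125b-2-3p therefore mark the chromosome 21 copy, and miR-100-5p and miR-125b-1-3p the chromosome 11 copy.

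The 5p arms were abundant in both lines and more abundant in BEAS-2B cells. In A549 cells hsa-miR-100-5p was counted 14261, 24569 and 18675 times in the control, the lower dose and the higher dose, which ranked it 5, 5 and 4 among all miRNAs. In BEAS-2B cells it was counted 38938, 29501 and 32165 times, ranked 3, 2 and 2. miR-100-5p was thus among the 5 most counted miRNAs in all 6 libraries.

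In the same order, hsa-miR-99a-5p was counted 6168, 5683 and 5255 times in A549 cells. It was counted 26190, 10595 and 11167 times in BEAS-2B cells, where its rank went from 6 in the control to 12 and 10 with TGF-β1. The BEAS-2B control was the high library for miR-99a-5p, with 3.56% of its reads, and the other 5 libraries held 0.631 to 1.61%.

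hsa-miR-125b-5p had 1767, 2696 and 2530 counts in A549 cells. It had 7980, 5648 and 5338 counts in BEAS-2B cells. All 3 BEAS-2B libraries were above all 3 A549 libraries. The A549 control was the low library for miR-125b-5p, at rank 33, and the other 5 ranked from 15 to 28.

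The 3p arms, which are usually degraded when the hairpin is processed, were far less counted. hsa-miR-125b-1-3p was counted 111, 242 and 287 times in A549 cells and 252, 308 and 349 times in BEAS-2B cells. In each line the control was the lowest library for this arm. hsa-miR-125b-2-3p was counted 20, 14 and 6 times in A549 cells and 83, 18 and 19 times in BEAS-2B cells. Here the control was the highest library of each line. miR-99a-3p had 1, 0 and 0 counts in A549 cells and 7, 2 and 2 in BEAS-2B cells, and miR-100-3p had 1, 8 and 2 and then 4, 4 and 5. By a one-sided 95% limit a count of 0 allows up to 3 counts, and these last arms were too sparse for any comparison.

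**Figure D1:**
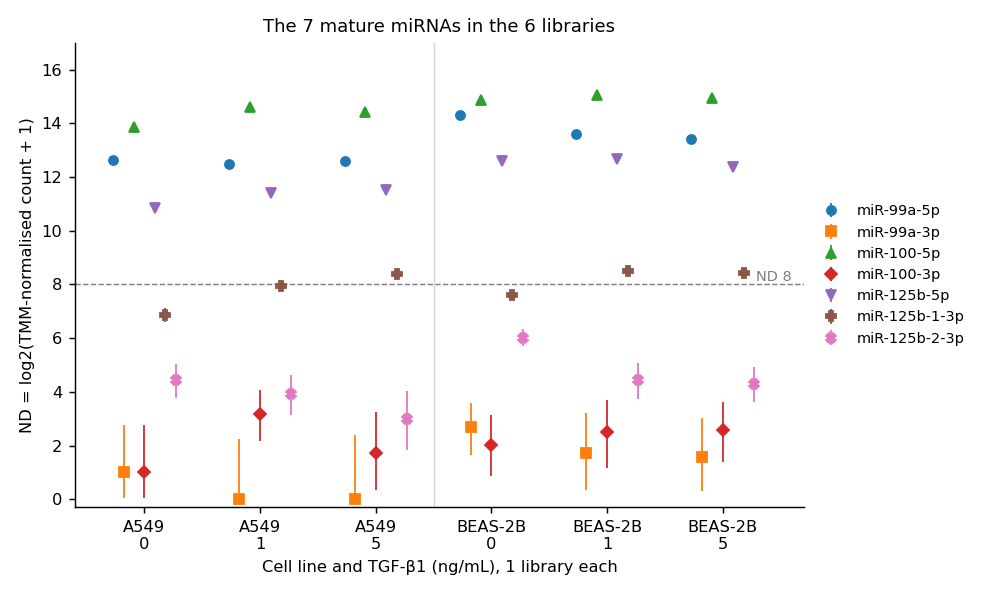
Level of each of the 7 mature miRNAs in each library, as ND, which is log2(TMM-normalised count + 1), by cell line and TGF-β1 dose in ng/mL. Points are single libraries, bars are exact Poisson 95% intervals of counting error, and the dashed line is ND 8. The 5p arms sit between ND 10.8 and 15.1, miR-125b-1-3p sits between 6.86 and 8.48, and the other 3p arms lie at or below 6.02.

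To compare libraries, counts were scaled with trimmed mean of M-values (TMM) factors, and ND was log2(normalised count + 1). The study's criteria for a changed miRNA were kept. They asked for a change of 1.4-fold or more and for ND 8 or more, the latter taken here in the greater of both libraries. miR-99a-5p, miR-100-5p, miR-125b-5p and miR-125b-1-3p reached this ND in some library, as did 157 miRNAs in all. miR-99a-3p, miR-100-3p and miR-125b-2-3p reached it in none. Total counts were 633318 to 900424 per library. miR-21-5p took 35.4% of the reads of the BEAS-2B control and 47.6 to 57.2% of the other 5 libraries, and the TMM factor was 1.32 for that library and 0.829 to 1.02 for the others. The choice among 9 scalings moved the median log2 ratio of all miRNAs tested, relative to TMM, by -0.14 to 0.09 and -0.16 to 0.16 at the lower and the higher dose in A549 cells. In BEAS-2B cells it moved that median by -0.59 to 0.04 and -0.41 to 0.18, so the range over the scalings is given where it matters. Within a line both doses were compared with the same control library, so their ratios are not independent.

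In A549 cells, miR-100-5p, miR-125b-5p and miR-125b-1-3p were higher with TGF-β1 and miR-99a-5p was nearly level. With the lower dose, 3 of the 7 reached the ND criterion and 2 of them passed the fold criterion, both higher. Of all 137 miRNAs tested, 48.9% passed, 37 higher and 30 lower. With the higher dose, 4 of the 7 reached the ND criterion and 3 passed, all higher. Of all 141 miRNAs tested, 53.2% passed, 38 higher and 37 lower. A change of this size was thus common in A549 cells. The median log2 ratio of those that reached the ND criterion was 0.56 at the lower dose and 0.61 at the higher dose, beside -0.11 and -0.03 for all miRNAs tested. The median at the higher dose includes miR-125b-1-3p, which reached the ND criterion only in the treated library, where it was high.

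The normalised count of miR-100-5p in A549 cells was 14839, then 24669 and 21733 with treatment. Its log2 ratio to the control was 0.73 (0.70 to 0.76) at the lower dose and 0.55 (0.52 to 0.58) at the higher dose. The ratio at the lower dose was past 1.4-fold under 8 of 9 scalings. Quantile normalisation, which ties the level of such an abundant miRNA to its rank, gave 0.00. With the higher dose the ratio was above 0 under all 9 scalings but past 1.4-fold under only 4.

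The normalised count of miR-125b-5p in A549 cells was 1839, 2707 and 2944. Its log2 ratio was 0.56 (0.47 to 0.65) at the lower dose and 0.68 (0.59 to 0.77) at the higher dose. All 9 scalings gave a ratio above 0 at both doses, from 0.42 to 0.65 at the lower dose and from 0.46 to 0.84 at the higher dose.

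miR-125b-1-3p had the largest ratios of the 4 in A549 cells, with normalised counts of 116, 243 and 334. Its log2 ratio was 1.07 (0.74 to 1.41) at the lower dose and 1.52 (1.21 to 1.86) at the higher dose, which is 2.88-fold. It was past 1.4-fold under all 9 scalings at both doses. It did not reach ND 8 in the control, where its ND was 6.86, nor at the lower dose, where it was 7.93. It entered the higher-dose comparison only through the treated library, where it was high, so its place among those past the criteria there followed in part from the filter.

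miR-99a-5p did not follow in A549 cells. Its normalised count was 6418, 5706 and 6116, and its log2 ratio was -0.17 (-0.22 to -0.12) at the lower dose and -0.07 (-0.12 to -0.02) at the higher dose. The ratio at the higher dose lay between -0.23 and 0.09 over the scalings, with 2 of 9 above 0. miR-125b-2-3p had log2 ratios of -0.53 (-1.66 to 0.49) and -1.45 (-3.18 to -0.21), on 20 control reads.

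In BEAS-2B cells, miR-99a-5p was lower and miR-125b-1-3p higher with TGF-β1, and under TMM the other 5p arms stayed near their control level. At both doses 4 of the 7 reached the ND criterion and 2 passed the fold criterion, miR-125b-1-3p higher and miR-99a-5p lower. Of all miRNAs tested, 29.2% of 120 passed at the lower dose, 19 higher and 16 lower. At the higher dose 36.0% of 125 passed, 25 higher and 20 lower. The median log2 ratio of the 4 was 0.14 at the lower dose and -0.08 at the higher dose, beside -0.04 and -0.08 for all miRNAs tested. miR-125b-1-3p entered these counts and medians only through the treated libraries, where it was high, with an ND of 7.61 in the control.

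The normalised count of miR-99a-5p in BEAS-2B cells was 20147, then 12267 and 10948 with treatment. Its log2 ratio was -0.72 (-0.75 to -0.68) at the lower dose and -0.88 (-0.91 to -0.85) at the higher dose, which is 1.64-fold and 1.84-fold lower. Every one of the 9 scalings put it past 1.4-fold lower at both doses, from -1.31 to -0.67 and from -1.29 to -0.52.

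miR-125b-1-3p in BEAS-2B cells had normalised counts of 194, 357 and 342. Its log2 ratio was 0.88 (0.63 to 1.13) and 0.82 (0.58 to 1.06), above 0 under all 9 scalings and past 1.4-fold under 7 of them at each dose. It again reached ND 8 only in the treated libraries, with an ND of 7.61 in the control. miR-125b-2-3p had log2 ratios of -1.57 (-2.44 to -0.87) and -1.72 (-2.58 to -1.04), lower under all 9 scalings, from a control level far below ND 8.

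The ratios of miR-100-5p and miR-125b-5p in BEAS-2B cells were small and changed sign with the scaling. miR-100-5p had normalised counts of 29953, 34156 and 31534 and log2 ratios of 0.19 (0.17 to 0.21) and 0.07 (0.05 to 0.10). Over the scalings these ranged from -0.40 to 0.48 and from -0.34 to 0.48. miR-125b-5p had normalised counts of 6139, 6539 and 5233 and log2 ratios of 0.09 (0.04 to 0.14) and -0.23 (-0.28 to -0.18), with ranges of -0.50 to 0.13 and of -0.64 to 0.12. miR-125b-5p was past 1.4-fold lower under 1 scaling at the lower dose and 3 at the higher dose. At the higher dose its ratio was above 0 under only 1 of 9 scalings.

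Between the doses, none of the 7 passed the criteria in either line. Of all miRNAs tested in that comparison, 16.9% of the 130 in A549 cells passed, as did 6.61% of the 121 in BEAS-2B cells. The largest difference among the 4 that reached ND 8 was that of miR-125b-1-3p in A549 cells, with a log2 ratio of 0.46 (0.21 to 0.71).

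**Figure D2:**
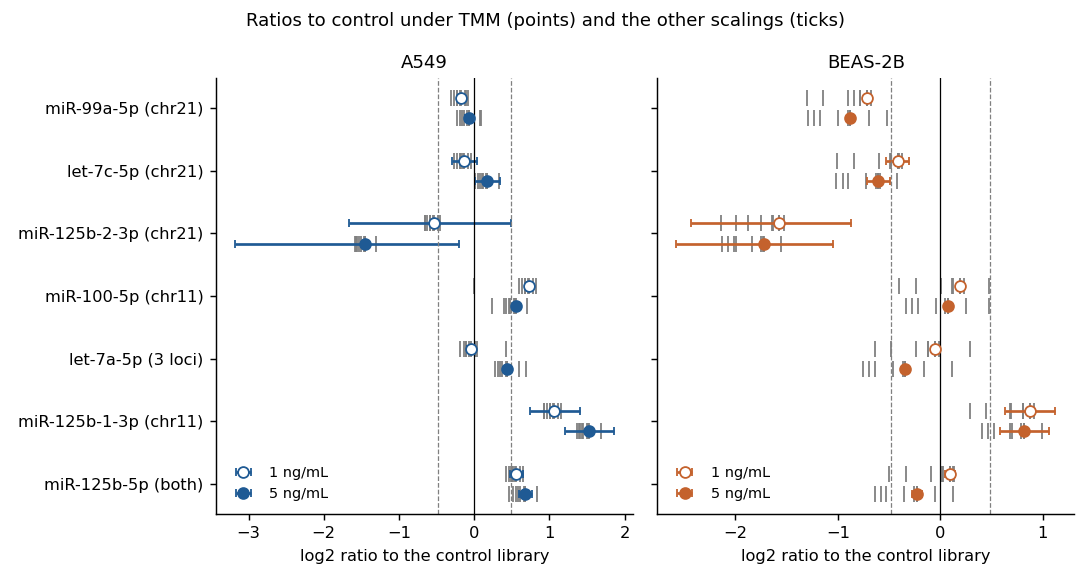
Log2 ratio of each miRNA to the control library of its line at 1 ng/mL (open) and 5 ng/mL (filled) TGF-β1, with exact 95% counting intervals, for miRNAs of both cluster copies and the let-7 miRNA of each. Grey ticks give the same ratio under the other scalings and dashed lines mark 1.4-fold. miR-125b-1-3p lies above 0 and miR-125b-2-3p below 0 in all 4 comparisons, and miR-99a-5p lies past 1.4-fold lower only in BEAS-2B cells.

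Ratios within a library need no scaling. They set reads counted under the chromosome 21 copy against those counted under the chromosome 11 copy, and do not measure the output of either copy. miR-99a-5p and miR-100-5p are both 22 bases long. They differ by 1 base, and a read placed under the wrong one cannot be recognised. Small RNA ligation captures different sequences unequally, so a share is a share of reads and only its change between libraries is read here. In A549 cells miR-99a-5p made up 30.2% (29.6 to 30.8) of the reads of this pair in the control, 18.8% (18.3 to 19.2) at the lower dose and 22.0% (21.4 to 22.5) at the higher dose. In BEAS-2B cells it made up 40.2% (39.8 to 40.6), 26.4% (26.0 to 26.9) and 25.8% (25.4 to 26.2). The share was lower in both treated libraries of both lines, by more than the counting error.

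On the log2 scale the ratio of miR-99a-5p to miR-100-5p changed by -0.90 (-0.96 to -0.84) at the lower dose and by -0.62 (-0.68 to -0.56) at the higher dose in A549 cells. In BEAS-2B cells it changed by -0.91 (-0.94 to -0.87) and by -0.95 (-0.99 to -0.92). With the lower dose the change was of like size in both lines, although the normalised levels moved differently, since miR-100-5p was higher in A549 cells and miR-99a-5p was lower in BEAS-2B cells. In A549 cells the ratio at the higher dose was 0.28 (0.22 to 0.34) above that at the lower dose.

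The 3p arms of miR-125b gave the same direction at the other end of the clusters. miR-125b-2-3p, from chromosome 21, made up 15.3% (9.58 to 22.6) of the reads of both 3p arms in the A549 control, 5.47% (3.02 to 9.01) at the lower dose and 2.05% (0.755 to 4.40) at the higher dose. In BEAS-2B cells its share was 24.8% (20.2 to 29.8), 5.52% (3.30 to 8.59) and 5.16% (3.14 to 7.95). The treated shares lay below the interval of the control in each line. The log2 ratio of miR-125b-2-3p to miR-125b-1-3p changed by -1.64 (-2.68 to -0.60) and -3.11 (-4.46 to -1.75) in A549 cells and by -2.49 (-3.27 to -1.72) and -2.60 (-3.35 to -1.84) in BEAS-2B cells.

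The let-7 miRNAs that lie between them showed a smaller difference. let-7c-5p comes from the chromosome 21 copy alone, while let-7a-5p comes from MIRLET7A2 on chromosome 11 and also from hairpins on chromosomes 9 and 22 with the same mature sequence, so this pair does not isolate a copy. The mature sequences differ by A19G from let-7a-5p to let-7c-5p, and they were compared because of that near identity.
let-7a-5p: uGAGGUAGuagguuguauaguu
let-7c-5p: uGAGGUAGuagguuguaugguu
let-7c-5p made up 7.18%, 6.81% and 6.05% of this pair in A549 cells and 8.48%, 6.71% and 7.17% in BEAS-2B cells. The log2 change was -0.08 (-0.25 to 0.09) at the lower dose and -0.26 (-0.43 to -0.10) at the higher dose in A549 cells, and -0.36 (-0.48 to -0.25) and -0.26 (-0.38 to -0.15) in BEAS-2B cells. The interval at the lower dose in A549 cells included 0. The 3p arms of these let-7 hairpins had at most 14 counts in a library, and the intervals of all their changes included 0.

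**Figure D3:**
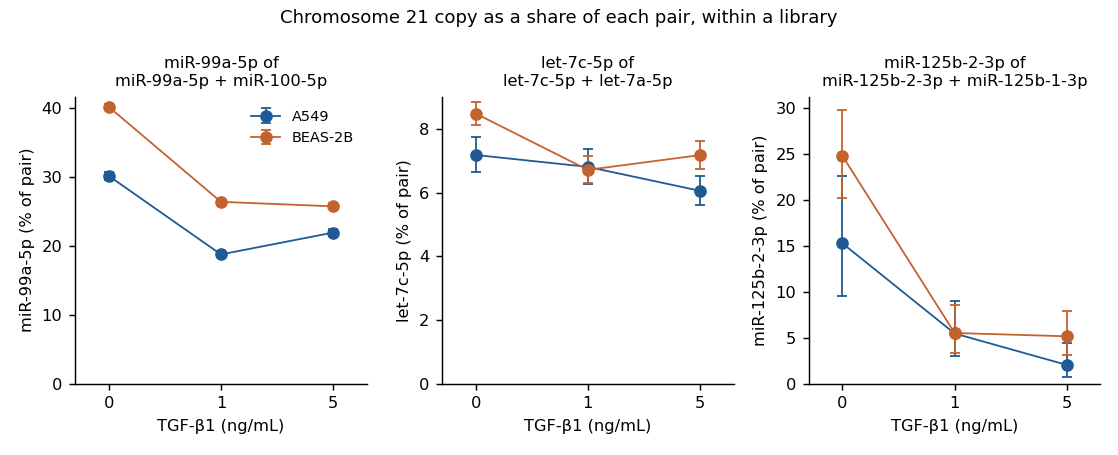
Share of reads counted under the miRNA of the chromosome 21 copy in each of 3 pairs, by TGF-β1 dose, with exact Clopper-Pearson 95% intervals. Each point is 1 library and each line joins the libraries of a cell line. miR-99a-5p goes from 30.2% to 18.8% and 22.0% in A549 cells and from 40.2% to 26.4% and 25.8% in BEAS-2B cells, and miR-125b-2-3p from 15.3% to 2.05% and from 24.8% to 5.16% at 5 ng/mL.

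The arms of miR-125b also moved against their shared 5p arm. miR-125b-1-3p made up 5.91% (4.89 to 7.07) of its reads and those of miR-125b-5p together in the A549 control, 8.24% (7.27 to 9.29) at the lower dose and 10.2% (9.10 to 11.4) at the higher dose. In BEAS-2B cells this share was 3.06% (2.70 to 3.46), 5.17% (4.62 to 5.76) and 6.14% (5.53 to 6.79). In both lines this share was higher with the lower dose than without treatment, and higher again with the higher dose. Between the doses in BEAS-2B cells, normalised counts went from 357 to 342 for miR-125b-1-3p and from 6539 to 5233 for miR-125b-5p. The log2 ratio of miR-125b-1-3p to miR-125b-5p changed by 0.85 (0.52 to 1.18) at the higher dose in A549 cells and by 1.05 (0.81 to 1.29) in BEAS-2B cells. The ratio of miR-125b-2-3p to miR-125b-5p changed the other way, by -2.25 (-3.57 to -0.94) and by -1.55 (-2.27 to -0.83).

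Across the doses of a line, miR-125b-5p itself kept closer to miR-100-5p than to miR-99a-5p. Its log2 ratio to miR-100-5p changed by -0.18 (-0.27 to -0.08) at the lower dose and 0.13 (0.04 to 0.22) at the higher dose in A549 cells, and by -0.10 (-0.15 to -0.04) and -0.30 (-0.36 to -0.25) in BEAS-2B cells. Its log2 ratio to miR-99a-5p changed by 0.73 (0.63 to 0.83) and 0.75 (0.65 to 0.85) in A549 cells and by 0.81 (0.75 to 0.87) and 0.65 (0.59 to 0.71) in BEAS-2B cells. Between the lines the order was the other way. The log2 ratio of miR-125b-5p to miR-99a-5p differed between A549 and BEAS-2B cells by -0.09 (-0.17 to -0.0045) without treatment, -0.17 (-0.25 to -0.09) with the lower dose and 0.01 (-0.07 to 0.09) with the higher dose, and that to miR-100-5p by -0.73 (-0.81 to -0.65), -0.80 (-0.87 to -0.73) and -0.29 (-0.37 to -0.22).

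A target with a site for the seed meets the whole seed family, so the family sums were also followed. The seed ACCCGUA was shared by miR-99a-5p, miR-100-5p and miR-99b-5p, and CCCUGAG by miR-125b-5p, miR-125a-5p and miR-4319, which had no count in any library. miR-99b-5p and miR-125a-5p come from a further copy of the cluster on chromosome 19.
miR-99b-5p: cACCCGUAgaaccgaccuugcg
miR-125a-5p: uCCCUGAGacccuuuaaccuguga
miR-99b-5p differed from miR-100-5p by 4 substitutions, all outside the seed.

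In the miR-99/100 family, miR-100-5p was the most counted member everywhere, with 57.2%, 66.7% and 62.5% of the family in A549 cells and 56.5%, 67.7% and 68.6% in BEAS-2B cells. miR-99a-5p held 24.8%, 15.4% and 17.6% in A549 cells and 38.0%, 24.3% and 23.8% in BEAS-2B cells. The family sum in A549 cells had a log2 ratio of 0.51 (0.49 to 0.54) at the lower dose. At the higher dose it was 0.42 (0.40 to 0.45). Quantile normalisation was not applied to family sums, and under every other scaling both ratios were above 0. In BEAS-2B cells the log2 ratio of the sum was -0.07 (-0.09 to -0.05) and -0.21 (-0.22 to -0.19). Its ranges, again without quantile normalisation, were -0.66 to -0.03 and -0.62 to -0.03. There the sum stayed closer to its control level than miR-99a-5p did.

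In the miR-125 family, miR-125a-5p was the most counted member. miR-125b-5p held 19.1%, 18.5% and 14.3% of the family in A549 cells and 44.0%, 31.8% and 36.7% in BEAS-2B cells. The family sum had log2 ratios of 0.60 (0.57 to 0.64) and 1.09 (1.05 to 1.13) in A549 cells, so that at the higher dose it was 2.13-fold higher while miR-125b-5p was 1.60-fold higher. In BEAS-2B cells the ratios were 0.56 (0.53 to 0.59) at the lower dose and 0.03 (0.00 to 0.06) at the higher dose. Over the scalings other than quantile normalisation they ranged from -0.03 to 0.60 and from -0.38 to 0.21.

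**Figure D4:**
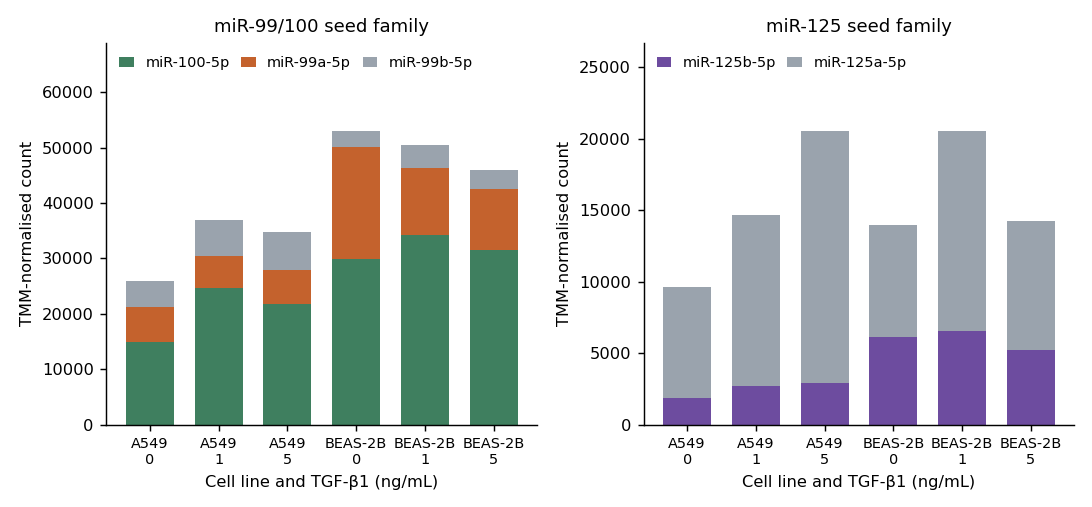
TMM-normalised counts of the miRNAs that share a seed, stacked by miRNA for each library (miR-4319, with no count, is left out). In A549 cells most of the difference in the miR-125 family lies in miR-125a-5p, and in BEAS-2B cells the miR-99a-5p segment goes from 20147 normalised counts in the control to 10948 at 5 ng/mL.

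The lines differed in these miRNAs before treatment. In the controls, miR-99a-5p was 3.14-fold, miR-100-5p 2.02-fold and miR-125b-5p 3.34-fold lower in A549 than in BEAS-2B cells. All 3 that reached the ND criterion passed the fold criterion, where 68.9% of 135 miRNAs did, 55 higher and 38 lower in A549 cells. With the lower dose, 3 of 4 passed, where 64.3% of 143 did, 55 higher and 37 lower in A549 cells. The 3 were miR-99a-5p, miR-125b-5p and miR-125b-1-3p, and miR-100-5p, 1.38-fold lower in A549 cells, fell just short. miR-125b-1-3p reached ND 8 there only in BEAS-2B cells, with an ND of 8.48 against 7.93, so it entered through the line in which it was high. With the higher dose, 3 of 4 passed, namely the 5p arms, where 67.8% of 146 did, 56 higher and 43 lower in A549 cells. All of the 7 that passed were lower in A549 cells. miR-125b-1-3p stood at a log2 ratio of -0.03 (-0.27 to 0.19) between the lines at the higher dose. All 8 scalings that join both lines put these 5p arms lower in A549 cells at each dose.

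The gap between the lines in the 5p arms was narrower with TGF-β1, except for miR-100-5p under quantile normalisation, where it was wider. For miR-99a-5p the log2 ratio of A549 to BEAS-2B went from -1.65 in the controls to -1.10 and -0.84, for miR-100-5p from -1.01 to -0.47 and -0.54, and for miR-125b-5p from -1.74 to -1.27 and -0.83. The log2 ratio to control at the higher dose was greater in A549 than in BEAS-2B cells by 0.81 (0.75 to 0.87) for miR-99a-5p, 0.48 (0.44 to 0.51) for miR-100-5p, 0.91 (0.81 to 1.01) for miR-125b-5p and 0.71 (0.31 to 1.10) for miR-125b-1-3p. For miR-125b-2-3p the difference was 0.27 (-1.23 to 1.77), which counting error alone could span. Over the 9 scalings the difference at the higher dose ranged from 0.60 to 1.38 for miR-99a-5p, from 0.33 to 1.48 for miR-125b-5p and from 0.52 to 1.27 for miR-125b-1-3p. For miR-100-5p it was above 0 under 8 of 9. The part of the high TMM factor of the untreated BEAS-2B library in these differences was not tested.

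The miRNAs with the nearest profile over the 6 libraries were found by the root mean square (RMS) difference of ND after each miRNA's own mean was subtracted, among the 156 others that reached ND 8 somewhere. For miR-99a-5p the nearest were miR-941 (0.163), let-7c-5p (0.204), miR-221-3p, let-7b-5p and miR-92b-3p. Its neighbour let-7c-5p was thus second of 156, while miR-100-5p was in place 29. For miR-100-5p the nearest were miR-22-3p (0.107), miR-23a-3p, miR-22-5p, miR-200b-3p and miR-28-5p, with let-7a-5p in place 10 and miR-99a-5p in place 47. For miR-125b-5p they were miR-130b-5p (0.0717), let-7d-5p, miR-574-5p, let-7b-5p and miR-539-3p, with miR-100-5p in place 9 and miR-99a-5p in place 12. For miR-125b-1-3p they were miR-181a-5p (0.174), miR-1290, miR-181b-5p, miR-22-5p and miR-151a-3p, with miR-100-5p in place 7 and miR-99a-5p in place 85. The RMS median over all candidates was between 0.658 and 0.902 for these 4 miRNAs.

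Marker miRNAs of other cell types were checked in the same libraries. Of the 7 epithelial miRNAs, 6 or 7 had at least 1 count in each library, with a summed normalised count of 247 to 401. miR-200b-3p alone gave 145 to 274 of these sums, and at most 1 of the 7 reached ND 8 in a library. miR-205-5p had at most 2 counts, miR-141-3p at most 8 and miR-203a-3p at most 18. Of the 5 mesenchymal miRNAs, miR-143-3p was counted 148, 1658 and 1106 times in A549 cells and 7, 62 and 101 times in BEAS-2B cells, and miR-214-3p had no count. The mesenchymal sum was 162 in the A549 control against 1736 and 1345 with TGF-β1, and 10.8 in the BEAS-2B control against 81.0 and 107. miR-143-3p alone gave 154, 1665 and 1287 of the sums in A549 cells. miR-145-5p had 5, 70 and 48 counts in A549 cells and 0, 5 and 5 in BEAS-2B cells. miR-199a-3p had 2, 1 and 1 counts and then 4, 2 and 3. miR-199a-5p had 1, 0 and 1 and then 3, 1 and 0. The higher sums thus rested on miR-143-3p and miR-145-5p, not on the whole list. The part of the mesenchymal sum in the results above was not tested. Of the 6 blood miRNAs, 1 to 4 were counted and their sum was at most 30.0, and the 3 muscle miRNAs summed to at most 3.12. Of the liver and brain miRNAs, miR-9-5p was counted 314 to 484 times in A549 cells and 8 times in each BEAS-2B library.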

How the data were processed

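For each of 6 libraries, prepared with a small RNA kit, the authors deposited unnormalised whole-number counts of reads over 2588 mature miRNAs. The submitters' processing notes name Bowtie2 and bedtools; the genome build, miRNA release, mismatch rule and normalisation were not given in the sources used here.

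Groups came from the sample labels. TMM factors over all 6 libraries were computed with edgeR 4.0.16 (R 4.3.3), and counts were scaled to the mean effective library size of 749498. With 1 library per group, no test was run and no p-value computed. Intervals were exact Clopper-Pearson for shares and ratios of counts, exact Poisson for levels and Wald for changes of a ratio. The miRNAs named were the 7 members, their let-7 neighbours, their chromosome 19 paralogs, miR-21-5p, the 5 nearest profiles of each and the marker lists. Members, lists and criteria were chosen with earlier results of these data known. The scalings compared with TMM were DESeq2 1.42.0 size factors, total count with and without miR-21-5p, TMM without miR-21-5p and the members, TMM within each line, TMM on miRNAs with a mean count of at least 10, no scaling and quantile normalisation (limma 3.58.1). Sequences were taken from RefSeq, which matched 2281 names. Other steps ran in Python 3.11.15 with scipy 1.17.1, pandas 2.3.3 and numpy 2.4.6, after a test of the procedure on simulated counts. The limit given for a count of 0 was the one-sided 95% limit, 3 counts.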

Additional observations from a re-analysis of the deposited data

How the results depend on the processing

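The number of the 7 miRNAs past the criteria was recomputed 132 times and stayed within 1.5 times its value in 116. In A549 cells at 1 ng/mL it went from 2 to 1 with DESeq2 size factors, total-count scaling, quantile normalisation or an interval required to lie wholly beyond 1.4-fold, and to 0 at a fold of at least 2. At 5 ng/mL it went from 3 to 1 with quantile normalisation and to 1 at a fold of at least 2, and between the doses from 0 to 1 with total-count scaling. In BEAS-2B cells it went from 2 to 1 with total-count scaling at 1 ng/mL, from 2 to 1 at both doses with an ND of at least 9 or the ND criterion on both libraries, and to 0 at both doses at a fold of at least 2. Between the lines at 5 ng/mL it went from 3 to 0 at a fold of at least 2. The log2 ratio of miR-125b-5p between the lines at 5 ng/mL, -0.83, reversed to 0.52 when miR-125a-5p was summed with it. The cause was not tested beyond what each setting removes. Shares within a library do not depend on the scaling. The labels give no replicate numbers that could pair libraries, and a fit with the cell line as a block was not run. Depth limits miR-99a-3p and miR-100-3p, with at most 8 counts in a library.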

Other observations

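The chromosome 19 copy of the cluster, which holds miR-99b, let-7e and miR-125a, was also higher in A549 cells with TGF-β1. At 5 ng/mL the log2 ratio to control was 0.57 (0.52 to 0.63) for miR-99b-5p, 0.51 (0.43 to 0.59) for let-7e-5p and 1.17 (1.13 to 1.21) for miR-125a-5p, each above 0 under all 9 scalings. In that order they were past 1.4-fold under 6, 4 and 9 scalings. The 3p arms lay in the same direction, at 0.43 (0.24 to 0.62) for miR-99b-3p, 0.51 (-0.09 to 1.13) for let-7e-3p and 0.84 (0.44 to 1.26) for miR-125a-3p. None of these 3p arms met both criteria, and the interval of let-7e-3p included 0.

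In BEAS-2B cells at 5 ng/mL the same ratios were 0.23 (0.16 to 0.30) for miR-99b-5p, 0.51 (0.43 to 0.59) for let-7e-5p and 0.21 (0.17 to 0.25) for miR-125a-5p, and 6 of 9 scalings gave a ratio above 0 for miR-99b-5p and for miR-125a-5p. At 1 ng/mL miR-125a-5p stood at 0.84 (0.80 to 0.88), above 0 under all 9. In BEAS-2B cells the values of miR-99b-5p and miR-125a-5p were thus lower at 5 than at 1 ng/mL, where miR-99b-5p stood at 0.45 (0.39 to 0.52). miR-99a-5p, from the chromosome 21 copy, was below its control in the same libraries. Each value rests on 1 library, and no difference between copies was tested.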
